A study of Mus musculus with 9 samples.

Results

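Amino acid transporters carry amino acids across the plasma membrane, and 10 genes of this kind were followed in NIH-3T3 cells, an established mouse embryonic fibroblast line. The genes were Slc7a1, Slc7a2, Slc3a2, Slc7a5, Slc7a6, Slc7a11, Slc38a1, Slc38a2, Slc1a4 and Slc1a5. They were chosen by name, with earlier results of these data known, from 19938 genes that had a probe set of their own. Their counts beside those over all genes are thus descriptive and carry no test. They were read by 11 probe sets, of which 2 belonged to Slc38a1. RNA was measured on Affymetrix whole-transcript arrays 48 hours after transfection at 25 nM. The RNAs compared, with 3 arrays each, were a mimic of mmu-miR-378-3p, which supplies this microRNA, an inhibitor, which blocks it, and a RISC-free control siRNA, which is made to stay out of the silencing complex. All cells thus received an RNA with the lipid reagent DharmaFECT 1, in RPMI medium with fetal calf serum and L-glutamine. The study's stated purpose was to identify miR-378-3p targets. The control siRNA was the only comparator, and no mimic or inhibitor of another sequence was among the samples, so effects of miR-378-3p and general responses to such RNAs cannot be told apart. The microRNA itself was not measured.

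Cells take up amino acids through several families of carriers that work together. The cationic carriers Slc7a1 and Slc7a2 bring in arginine, lysine and ornithine. Slc3a2, also called CD98 or 4F2, is a single-pass heavy chain that binds light chains such as Slc7a5, Slc7a6 and Slc7a11 and brings them to the surface, where each exchanges one amino acid for another. The sodium-coupled carriers Slc38a1 and Slc38a2 and the exchangers Slc1a4 and Slc1a5 move small neutral amino acids. Glutamine, carried by Slc38a1 and Slc1a5 among others, can then be traded by light chains for leucine or other large amino acids. In cultured fibroblasts this uptake feeds protein synthesis, glutathione and growth signalling through mTORC1, and several of the genes are known targets of the stress factor ATF4.

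Most of these genes rose with the inhibitor and 1 fell with the mimic. With the inhibitor, 7 of 10 rose (Slc7a1, Slc7a2, Slc3a2, Slc7a5, Slc7a11, Slc38a1 and Slc1a4) and none fell, beside rises in 11.1%, falls in 3.76% and calls in either direction in 14.9% of all 11963 genes tested (limma, adjusted p under 0.05). With the mimic, Slc7a6 alone fell and none rose, beside falls in 2.45%, rises in 1.1% and calls in either direction in 3.55% of all genes. The median log2 fold change of the 10 genes was 0.37 with the inhibitor, against 0.01 over all genes, and -0.03 with the mimic, against -0.01 over all genes. In the comparison of inhibitor and control arrays the groups did not overlap for any of the 10 genes, which was so for 37.7% of all genes. In the comparison of mimic and control arrays they did not overlap for 3 genes, Slc7a5, Slc7a6 and Slc38a1, beside 21.3% of all genes. Both comparisons use the same control arrays. The shares over all genes depend on the scaling. With the inhibitor 1330 genes rose and 450 fell, against 1269 and 1022 after quantile normalization, and with the mimic 132 rose and 293 fell, against 335 and 439 after quantile normalization and 484 and 427 with the arrays mimic 3 and inhibitor 1 left out.

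**Figure D1:**
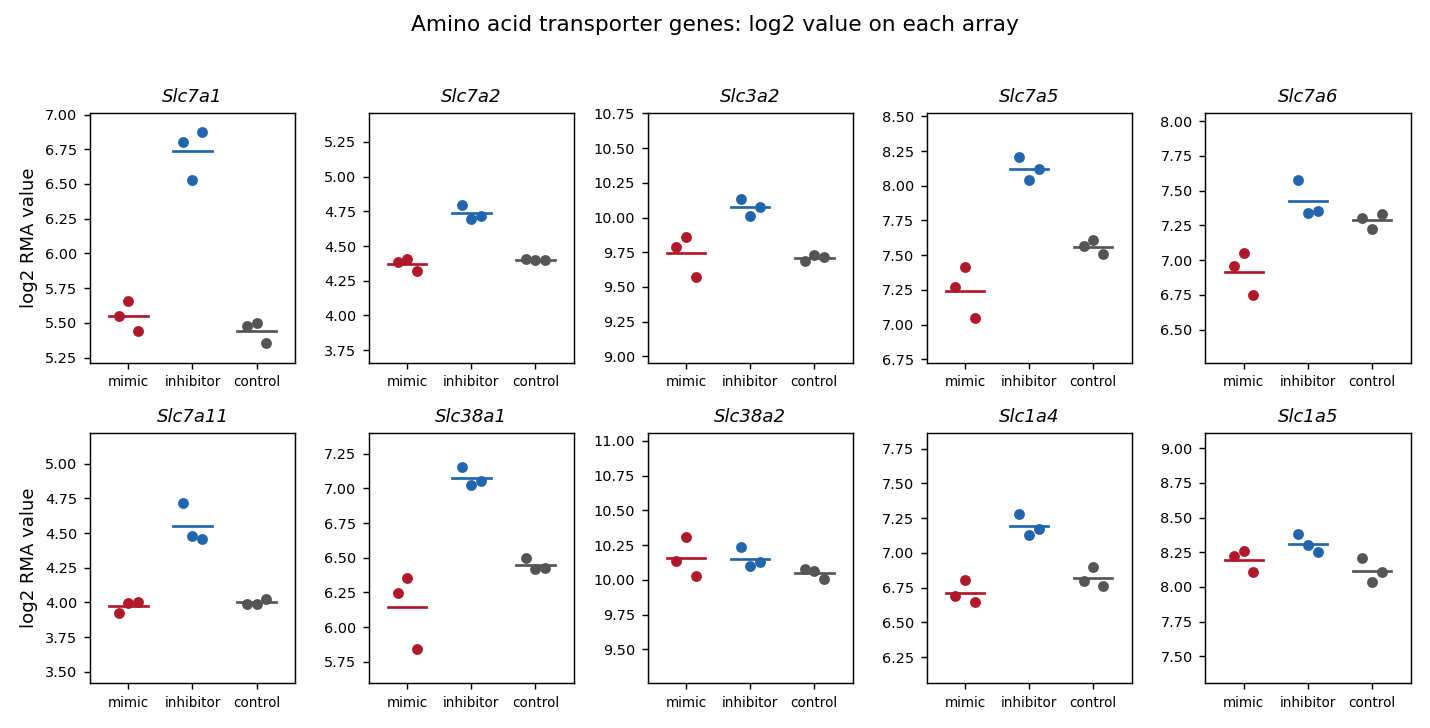
Log2 value of each transporter gene on each of the 9 arrays, with mimic, inhibitor and control arrays from left to right, points for arrays and lines for group means of 3. Each panel spans the same range on the log2 axis, so distances compare between panels. Inhibitor arrays lie above the control arrays in each panel, by most for Slc7a1.

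All 10 genes passed the level filter, a mean of at least 3.86 (log2) over the 9 arrays, and each also lay above it on every control array. Levels of different genes are not set against each other, since each probe set has its own response. On the first principal component of all genes tested, which held 60.5% of the variance, mimic 3 and inhibitor 1 lay at the ends. Of the 10 transporter genes, 6 were lowest on mimic 3 and 8 were highest on inhibitor 1. The median difference of the 10 genes from their control means was -0.05, -0.00 and -0.11 on mimic 1, 2 and 3, and 0.45, 0.31 and 0.36 on inhibitor 1, 2 and 3. With both end arrays left out, the same 7 genes rose with the inhibitor, by 0.30 (Slc7a2) to 1.26 (Slc7a1), and 2 genes, Slc7a5 and Slc7a6, fell with the mimic. All 10 fibroblast markers were above the filter (Col1a1, Col1a2, Col3a1, Col5a1, Fn1, Vim, S100a4, Pdgfra, Pdgfrb and Thy1). Among them Thy1 rose by 0.38 with the mimic, and Col3a1 had a log2 fold change of -0.22 with the inhibitor (limma, adjusted p = 0.00823 and 0.0427). Between mimic and inhibitor arrays 4 were called, Col3a1, Pdgfrb, S100a4 and Thy1. Of 18 markers of macrophages, epithelium, endothelium and muscle, 7 were above the filter, and none of these 7 was called in the 3 comparisons (limma). Ptprc, Epcam, Cdh5 and Myog were among those below the filter. The summed log2 level of the 4 muscle markers was 16.59 to 16.88 on mimic arrays, 16.10 to 16.51 on inhibitor arrays and 16.51 to 16.66 on control arrays. That of the 5 macrophage markers was 18.66 to 18.81 on mimic arrays, 18.66 to 18.79 on inhibitor arrays and 18.85 to 18.97 on control arrays. That of the 4 endothelium markers was 14.552 to 14.645, 14.506 to 14.538 and 14.543 to 14.672, in the same order. For the 5 epithelium markers the ranges overlapped. All these sums include markers below the filter. The part of such cell types in the results was not tested. In RNA of whole cultures, fewer cells of a kind and less RNA per cell cannot be told apart.

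Among the cationic carriers, Slc7a1 (gene ID 11987), which encodes the arginine and lysine importer CAT-1, had the largest change of the 10 with the inhibitor, though not with the mimic. Its log2 values were 5.55, 5.65 and 5.44 on the mimic arrays, 6.80, 6.53 and 6.87 on the inhibitor arrays, and 5.47, 5.50 and 5.35 on the control arrays. The inhibitor arrays stood clear of the other 6, while mimic and control arrays overlapped. The inhibitor raised Slc7a1 by 1.29 ± 0.09 (log2, SE), a fold change of 2.45 with a 95% confidence interval of 1.09 to 1.49 on the log2 scale (limma, adjusted p = 3.42e-05). This was rank 2 from the largest rise among the 11963 genes tested. With the mimic the log2 fold change was 0.11 ± 0.09 (SE) and did not pass (limma, adjusted p = 0.657). Its interval ran from -0.10 to 0.31.

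Slc7a2 (gene ID 11988) encodes CAT-2, a second cationic carrier, known for supplying arginine to nitric oxide synthesis in macrophages. Its log2 values were 4.39, 4.40 and 4.32 on the mimic arrays, 4.80, 4.69 and 4.72 on the inhibitor arrays, and 4.41, 4.40 and 4.40 on the control arrays. The control arrays lay within 0.01 of each other, and the inhibitor arrays lay above both other groups. Slc7a2 rose by 0.33 ± 0.05 (log2, SE) with the inhibitor (limma, adjusted p = 0.00154). With the mimic its log2 fold change was -0.03 (limma, adjusted p = 0.819).

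The heavy chain gene Slc3a2 (gene ID 17254) read 9.79, 9.86 and 9.57 on the mimic arrays, 10.14, 10.01 and 10.07 on the inhibitor arrays, and 9.68, 9.73 and 9.71 on the control arrays (log2). Mimic arrays lay on both sides of the controls, with mimic 3 below them. Slc3a2 rose by 0.37 ± 0.07 (log2, SE) with the inhibitor, a fold change of 1.29 (limma, adjusted p = 0.00747). With the mimic its log2 fold change was 0.03, with an interval of -0.13 to 0.19 (limma, adjusted p = 0.885).

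Of its light chains, Slc7a5 (gene ID 20539) encodes LAT1, which takes up leucine and other large neutral amino acids in exchange for glutamine. Its log2 values were 7.27, 7.41 and 7.05 on the mimic arrays, 8.20, 8.04 and 8.12 on the inhibitor arrays, and 7.56, 7.61 and 7.51 on the control arrays. The 3 groups did not overlap, with mimic lowest, control between and inhibitor highest. Slc7a5 rose by 0.56 ± 0.08 (log2, SE) with the inhibitor, a fold change of 1.48 (limma, adjusted p = 0.00204). With the mimic its log2 fold change of -0.32 ± 0.08 (SE) did not pass (limma, adjusted p = 0.075), while with the 2 end arrays left out it was -0.22 and did (limma, adjusted p = 0.0468). It also passed without mimic 2 (-0.40, limma, adjusted p = 0.0193) and after quantile normalization (-0.28, limma, adjusted p = 0.0158). These were 3 of 17 other settings, and 1 of 9 fits with a single array left out. In the rest it did not pass, with adjusted p of up to 0.231 (limma).

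Slc7a6 (gene ID 330836) encodes the light chain y+LAT2, which exports arginine in exchange for neutral amino acids and sodium. It read 6.96, 7.05 and 6.75 on the mimic arrays, 7.58, 7.34 and 7.35 on the inhibitor arrays, and 7.31, 7.22 and 7.33 on the control arrays (log2). The mimic arrays lay below all others, and 2 of the inhibitor arrays lay just above the highest control. The log2 value of Slc7a6 fell by 0.37 on average in mimic-treated cells (SE 0.09, limma, adjusted p = 0.0468). This call held in the fits without mimic 2 and without inhibitor 1, and ended in the other 7 fits with an array left out, with adjusted p of 0.0589 to 0.174 (limma). With the inhibitor the log2 fold change was 0.14, with an interval of -0.05 to 0.33 (limma, adjusted p = 0.343).

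Slc7a11 (gene ID 26570) encodes xCT, the light chain that imports cystine for glutathione in exchange for glutamate. Its log2 values were 3.925, 3.999 and 4.001 on the mimic arrays, 4.717, 4.478 and 4.459 on the inhibitor arrays, and 3.986, 3.986 and 4.028 on the control arrays. Its control level was thus close to the median of all probe sets, which was 3.94 to 4.03 over the arrays. The filter is no measure of background, so whether this level is above background is not known from these values. Mimic and control arrays overlapped, and inhibitor 1 was highest. Slc7a11 rose by 0.55 ± 0.07 (log2, SE) with the inhibitor (limma, adjusted p = 0.000741), a measured fold of 1.47 that may understate the change. Its log2 fold change with the mimic was -0.03, with an interval of -0.18 to 0.13 (limma, adjusted p = 0.91).

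RefSeq promoters (GRCm38.p6, 250 bases before to 50 after a start) were listed for 6 of the 10 genes, with 8 starts. They were searched on both strands for TGATGNAA, the core of the C/EBP-ATF response element that ATF4 binds. It was found in 3.97% of all 32851 promoters, and among these genes in Slc7a11 and Slc1a4. Slc7a11 held it at bases -66 to -59 as TGATGCAA and at -47 to -40 on the other strand as TTGCATCA, and 0.07% of all promoters held 2 or more. Slc1a4 held it across the start, at bases -4 to 4. The windows below run from 100 bases before the start to 10 after it, 5′ to 3′ on the gene's strand, and are shown because they carry the match, which is in capitals. Promoters of the other 4 genes were not analysed here.
Slc7a11, chr3:50443604-50443713, minus strand: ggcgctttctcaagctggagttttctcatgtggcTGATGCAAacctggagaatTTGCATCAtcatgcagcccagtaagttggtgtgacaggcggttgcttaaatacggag
Slc1a4, chr11:20332704-20332813, minus strand: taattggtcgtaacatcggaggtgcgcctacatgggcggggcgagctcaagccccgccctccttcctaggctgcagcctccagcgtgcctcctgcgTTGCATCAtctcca
Matches to TGACNNNGC, an antioxidant response element, lay in promoters of Slc7a1, Slc7a6 and Slc38a2, beside 12.4% of all promoters, and CACGTG, an E-box, lay in none of the 8, beside 7.15% of all. A match describes letters only, and no match says only that these letters are not in this window.

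Among the neutral carriers, Slc38a1 (gene ID 105727) encodes SNAT1, a sodium-coupled importer of glutamine and other small neutral amino acids. The brighter of its 2 probe sets read 6.244, 6.351 and 5.842 on the mimic arrays, 7.156, 7.025 and 7.053 on the inhibitor arrays, and 6.497, 6.422 and 6.424 on the control arrays (log2). The 3 groups did not overlap, and mimic 3 lay furthest from the rest. The gene rose by 0.63 ± 0.11 (log2, SE) with the inhibitor, a fold change of 1.55 (limma, adjusted p = 0.00404). With the mimic the log2 fold change of -0.30 ± 0.11 (SE) did not pass (limma, adjusted p = 0.192).

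The second probe set of Slc38a1 gave a smaller difference with the inhibitor. It read 4.78, 4.81 and 4.38 on the mimic arrays, 5.48, 5.16 and 5.18 on the inhibitor arrays, and 5.03, 4.86 and 5.02 on the control arrays (log2). When every probe set was fitted on its own, its log2 fold change with the inhibitor was 0.30 ± 0.12 (SE) and did not pass (limma, adjusted p = 0.126). With the mimic it was -0.32 ± 0.12 (SE; limma, adjusted p = 0.222), close to that of the brighter one.

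Slc38a2 (gene ID 67760) encodes SNAT2, a related sodium-coupled carrier known for its induction when amino acids run short. Its log2 values were 10.14, 10.31 and 10.03 on the mimic arrays, 10.23, 10.10 and 10.13 on the inhibitor arrays, and 10.08, 10.06 and 10.01 on the control arrays. Mimic 2 was the highest array. The log2 fold change was 0.11 with the mimic (interval -0.05 to 0.27, limma, adjusted p = 0.528) and 0.10 with the inhibitor (interval -0.06 to 0.26, limma, adjusted p = 0.398).

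Slc1a4 (gene ID 55963) encodes ASCT1, an exchanger of serine, alanine, cysteine and threonine. It read 6.69, 6.81 and 6.65 on the mimic arrays, 7.28, 7.13 and 7.17 on the inhibitor arrays, and 6.80, 6.90 and 6.76 on the control arrays (log2). Inhibitor arrays lay above the others, and mimic and control arrays overlapped. Slc1a4 rose by 0.38 ± 0.06 (log2, SE) with the inhibitor (limma, adjusted p = 0.00344), and its log2 fold change with the mimic was -0.10 (limma, adjusted p = 0.493).

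Slc1a5 (gene ID 20514) encodes ASCT2, an exchanger known as a main route of glutamine into growing cells. Its log2 values were 8.22, 8.26 and 8.11 on the mimic arrays, 8.38, 8.30 and 8.25 on the inhibitor arrays, and 8.21, 8.03 and 8.10 on the control arrays. The inhibitor arrays lay above the controls by a small margin. The log2 fold change with the inhibitor was 0.20 ± 0.06 (SE) and did not pass (limma, adjusted p = 0.0655). It passed without mimic 3 and in a fit of 6 arrays (limma, adjusted p = 0.0294 and 0.0439), which were 2 of 17 other settings. In the rest it did not pass, with adjusted p of up to 0.221 (limma). With the mimic it was 0.08 (limma, adjusted p = 0.611).

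**Figure D2:**
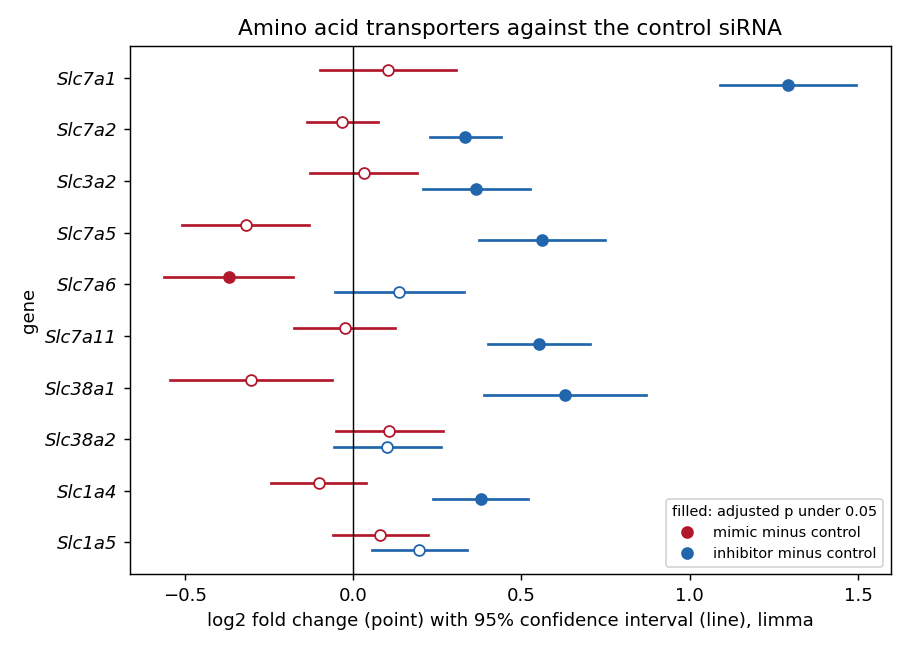
Log2 fold change of each transporter gene against the control siRNA, mimic above inhibitor in each row, as a point with its 95% confidence interval (limma, 3 arrays a group). Filled points passed an adjusted p of 0.05. Slc7a1 with the inhibitor lies furthest to the right, at 1.29, and the intervals of both comparisons include 0 for Slc38a2 alone.

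Mimic and inhibitor arrays were also compared directly. Of the 10 genes, 8 were lower with the mimic than with the inhibitor and none was higher, beside 19.9% of all genes lower, 6.91% higher and 26.8% called either way (limma). Over all genes 827 were higher and 2377 lower, against 1670 and 2028 after quantile normalization. The groups did not overlap for these 8, beside 38.6% of all genes. The median log2 difference of the 10 genes, mimic minus inhibitor, was -0.49, against -0.02 over all genes. It was -1.19 ± 0.09 for Slc7a1, -0.93 ± 0.11 for Slc38a1 and -0.88 ± 0.08 for Slc7a5 (SE; limma, adjusted p of at most 0.000256). Slc7a6, which lay below the controls with the mimic, differed by -0.51 ± 0.09 (SE; limma, adjusted p = 0.00206). The difference was -0.12 for Slc1a5, with an interval of -0.26 to 0.03, and 0.01 for Slc38a2, with an interval of -0.15 to 0.16, and neither passed (limma, adjusted p = 0.213 and 0.963).

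Further amino acid transporters were counted in the same fits. Of 30 such genes listed, 13 were below the level filter, among them Slc7a3, Slc7a7, Slc7a8, Slc38a3, Slc38a5 and Slc43a2, and 17 were tested. With the inhibitor 4 of 17 rose and none fell, with a median log2 fold change of 0.09, beside rises in 11.1% of all genes. They were the taurine carrier gene Slc6a6 (0.51 ± 0.09), Slc15a4 (0.48 ± 0.06), which encodes a lysosomal carrier of histidine and peptides, the creatine carrier gene Slc6a8 (0.38 ± 0.08) and Slc43a1 (0.30 ± 0.07), which encodes the large neutral carrier LAT3 (log2, SE; limma, adjusted p of at most 0.015). The calls of Slc43a1 ended without control 1 or inhibitor 1 and that of Slc6a8 without control 3. With the mimic limma called none of the 17, beside 3.55% of all genes, with a median of -0.02. An unadjusted p under 0.05 (limma) was found for 4 of the 17, with changes in both directions. That share was not counted over all genes, so it cannot be set beside the 3.55%.

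**Figure D3:**
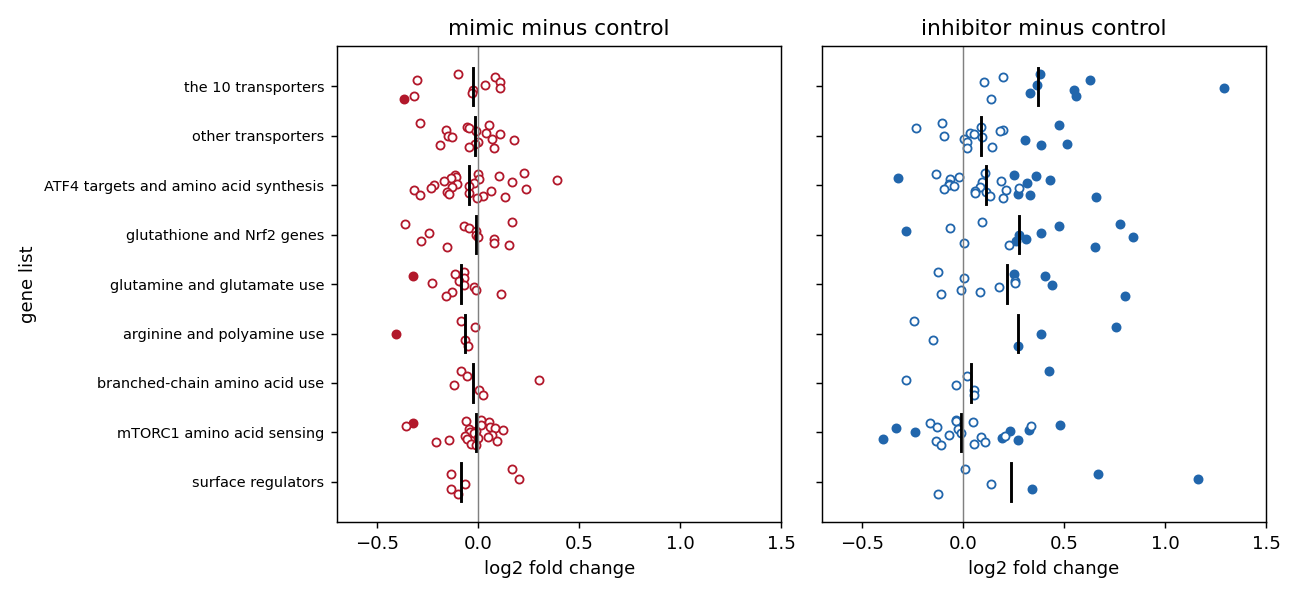
Log2 fold change of each gene tested in the 10 transporters and 8 related lists, with mimic minus control at left and inhibitor minus control at right. Filled points passed an adjusted p of 0.05 (limma), and black bars are list medians. With the inhibitor the median of the 10 transporters is 0.37, and that of glutathione and Nrf2 genes is 0.28.

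Genes of amino acid use and of related stress responses were counted next. Asns, Sesn2, Chac1 and Gpt2 are shared between lists, and Asns and Sesn2 rose with the inhibitor, so the list counts are not independent. The list of glutathione and Nrf2 genes holds enzymes of glutathione synthesis and use, together with Nrf2 and other genes that this oxidative stress factor is known to induce. Of 13 tested, 8 rose and 1 fell with the inhibitor, with a median log2 fold change of 0.28, beside rises in 11.1% and falls in 3.76% of all genes. Hmox1, which encodes the heme-degrading enzyme heme oxygenase 1, read 7.77, 7.74 and 7.84 on the mimic arrays, 8.66, 8.60 and 8.63 on the inhibitor arrays, and 7.77, 7.77 and 7.82 on the control arrays (log2). It rose by 0.84 ± 0.05 (log2, SE) with the inhibitor (limma, adjusted p = 9.63e-06). Gclc and Gclm, the subunits of the enzyme that starts glutathione synthesis, rose by 0.78 and 0.48, and the thioredoxin reductase gene Txnrd1 rose by 0.65 (limma, adjusted p of at most 0.00365). The gene that fell was Gpx4, which encodes a glutathione peroxidase for lipids, at -0.28 ± 0.07 (log2, SE; limma, adjusted p = 0.0179). It is named because it was the single fall, after its value was seen. With the mimic limma called none of the 13, beside 3.55% of all genes. An unadjusted p under 0.05 (limma) was found for 3 of the 13 (Gclc, Gsr and Nqo1, each with a negative log2 fold change). That share was not counted over all genes, so it cannot be set beside the 3.55%.

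Of 26 tested ATF4 targets and genes of amino acid synthesis, 7 rose and 1 fell with the inhibitor, with a median log2 fold change of 0.11, beside rises in 11.1% and falls in 3.76% of all genes. Trib3, a pseudokinase gene induced by ATF4, rose by 0.66 ± 0.09, Cebpb by 0.43 ± 0.11, Atf3 by 0.36 ± 0.08 and Shmt2, a mitochondrial serine enzyme gene, by 0.33 ± 0.07 (log2, SE; limma, adjusted p of at most 0.0239). The call of Cebpb ended without the level filter and after quantile normalization (limma, adjusted p = 0.0542 and 0.109), and those of Atf3, Cebpb and Shmt2 each ended without at least 1 array (limma, adjusted p of up to 0.0655, 0.0966 and 0.0616). Cebpb passed in 4 of 9 fits with an array left out. With the mimic the log2 fold change of Cebpb was 0.39 ± 0.11 (SE) and did not pass (limma, adjusted p = 0.0873). Its mimic minus inhibitor difference was -0.04 (limma, adjusted p = 0.793). Atf5, which encodes a related factor, was the fall, at -0.32 ± 0.06 (log2, SE; limma, adjusted p = 0.0062), and was named after its value was seen. The log2 fold change of Atf4 itself, named after the values were seen because the list carries its name, was -0.02 ± 0.06 (SE; limma, adjusted p = 0.894). With the mimic limma called none of the 26, beside 3.55% of all genes. An unadjusted p under 0.05 (limma) was found for 11 of the 26, with changes in both directions, such as Cebpb up and Shmt2 down (-0.29). That share was not counted over all genes, so it cannot be set beside the 3.55%.

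Of 12 genes of glutamine and glutamate use, 4 rose with the inhibitor, with a median log2 fold change of 0.22, beside rises in 11.1% of all genes. With the mimic 1 of the 12 fell, beside falls in 2.45% of all genes. Ppat, the enzyme gene that commits glutamine to purine synthesis, read 6.03, 6.25 and 5.70 on the mimic arrays, 7.08, 6.81 and 6.99 on the inhibitor arrays, and 6.19, 6.07 and 6.20 on the control arrays (log2). It rose by 0.80 ± 0.12 (log2, SE; limma, adjusted p = 0.00204) with the inhibitor. Cad, which encodes the first enzymes of pyrimidine synthesis, fell by 0.32 in mimic-treated cells (limma, adjusted p = 0.0171) and rose by 0.41 with the inhibitor (limma, adjusted p = 0.00176). Got1 rose by 0.44 and the asparagine synthetase gene Asns by 0.25 with the inhibitor (limma, adjusted p = 0.0248 and 0.0454). Both calls ended without the level filter and in 5 of 9 (Got1) and 6 of 9 (Asns) fits with an array left out, and that of Asns also with the replicate number as a block and after median centring (limma, adjusted p = 0.0738 and 0.0687), while that of Cad with the mimic ended without mimic 1, control 1 or control 2.

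Of 5 genes of arginine and polyamine use that were tested, 3 rose with the inhibitor, beside rises in 11.1% of all genes, and 1 fell with the mimic, beside falls in 2.45%. Azin1, which encodes a protein that protects ornithine decarboxylase, rose by 0.76 ± 0.09 with the inhibitor, and the spermidine synthase gene Srm by 0.27 ± 0.06 (log2, SE; limma, adjusted p of at most 0.00978). Odc1, which encodes ornithine decarboxylase itself, read 7.25, 7.23 and 6.99 on the mimic arrays, 8.05, 7.91 and 7.89 on the inhibitor arrays, and 7.58, 7.55 and 7.57 on the control arrays (log2). The 3 groups did not overlap. Odc1 fell by 0.41 in mimic-treated cells (limma, adjusted p = 0.0154) and rose by 0.38 with the inhibitor (limma, adjusted p = 0.00667). The fall with the mimic did not pass without any single control array (limma, adjusted p of 0.0615 to 0.0799).

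Of 6 listed regulators of the carriers, 3 rose with the inhibitor, beside rises in 11.1% of all genes. Myc, a transcription factor gene whose product is known to raise Slc7a5 and Slc1a5, read 7.03, 6.96 and 6.69 on the mimic arrays, 7.90, 7.78 and 7.87 on the inhibitor arrays, and 6.68, 6.78 and 6.60 on the control arrays (log2). It rose by 1.16 with the inhibitor (limma, adjusted p = 4.81e-05). Cd44, whose product is known in human cells to hold xCT at the surface, rose by 0.67 ± 0.08, and the ubiquitin ligase gene Nedd4l by 0.34 ± 0.09 (log2, SE; limma, adjusted p = 0.000648 and 0.0246). The call of Nedd4l ended without control 1, control 2 or inhibitor 1 (limma, adjusted p of 0.0759 to 0.101). With the mimic limma called none of the 6, beside 3.55% of all genes. An unadjusted p under 0.05 (limma) was found for 2 of the 6 (Bsg and Myc, each with a positive log2 fold change). That share was not counted over all genes, so it cannot be set beside the 3.55%.

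The genes most like Slc7a5 over the 9 arrays were Gpr137b, Nat10, Slc22a23, Ybx3 and Rai14, with the highest Pearson r among the genes tested, 0.992 to 0.995. Those most like Slc7a11 were Gria3, Steap1, Fhdc1, Bcl6 and Alcam, with r of 0.985 to 0.997. The arrays fall into 3 groups, and r carries the differences between groups together with those within them. Over deviations from the group means the same pairs had r of 0.888 to 0.951 for Slc7a5 and 0.786 to 0.950 for Slc7a11. The pairs were picked by r over these same arrays, and deviations of other pairs are not given. These values describe 9 arrays that share a normalization and carry no test.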

How the data were processed

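Each array came as log2 expression values, 1 for every probe set, deposited by the authors, and the submitters' processing notes name Partek 6.5 and RMA, a method that corrects background, normalizes probes by quantiles and summarises them by median polish. No genome build was stated in the sources used. The 28853 probe sets had no missing value. Genes were named from the 21789 probe sets that the platform annotation gives 1 gene, and the one with the highest mean stood for a gene with several. The level filter, 3.86, was the 40th percentile of gene means. Group means were estimated over the 9 arrays together by limma 3.58.1 (R 4.3.3; lmFit, then eBayes), with 6 residual degrees of freedom and 4.37 from the prior, with Benjamini-Hochberg adjustment across 11963 genes and a threshold of 0.05. Unless a setting is named beside it, an adjusted p comes from this test. The second Slc38a1 probe set was tested in a fit of 13139 probe sets, and values with arrays left out or another scaling come from refits. Standard errors are moderated. The number of arrays limits the precision. Triplicates are not described as separate cultures in the labels: the p-values cover the spread among these samples alone, which may be technical.

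The 10 genes and the lists were chosen with earlier results of these data known. The lists are described by counts and medians. Named are the 10 genes, up to 4 changed members of each list with the largest fold change in each comparison with the control, and the 5 genes most like Slc7a5 and Slc7a11. Gpx4, Atf5 and Atf4 fall outside this rule, as do the cell type markers. On simulated data with 200 of 11963 genes changed, the inhibitor comparison recovered 52.2% of changes of 0.3, 77.6% of changes of 0.5 and 100% of changes of 1 (log2), with 8 false among 161 calls. The mimic comparison recovered 49.3%, 85.1% and 100%, with 8 false among 164 calls. The simulated noise was normal and drawn independently for each gene and array. Differences that run across a whole array, as on mimic 3 and inhibitor 1, were not simulated, so these rates may not hold for these data. Python 3.11.15 and matplotlib 3.10.9 drew the figures.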

Additional observations from a re-analysis of the deposited data

How the results depend on the processing

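The 7 rises with the inhibitor passed in all 119 fits of 17 other settings (limma, adjusted p of at most 0.0359), and the count was 7 to 8 with single arrays left out. The second Slc38a1 probe set, a check chosen after seeing the data, did not pass. The 8 genes lower with the mimic than with the inhibitor kept that count in each alternative. The 1 call with the mimic was less stable. The count was 0 without the level filter, after median centring, in a fit of 6 arrays and with the replicate number as a block, 2 after quantile normalization and with mimic 3 and inhibitor 1 left out, and 0 to 2 with single arrays left out. The labels do not say whether replicate numbers pair the arrays. Across groups, 2 of 9 arrays correlated best with their own number, and same-numbered deviations correlated from -0.59 to 0.22. With so few arrays, and differences that run across whole arrays, these values cannot decide it. The block left 7 rises with the inhibitor, and moved the count over all genes to 289, against 425, with the mimic. The log2 fold change of Slc3a2 with the mimic turned to -0.028 without mimic 2, with 0.12 at the other end over single arrays left out. The mimic minus inhibitor difference of Slc38a2, 0.01, turned to -0.016 after quantile normalization and to -0.024 after median centring. It ran from -0.070 to 0.070 over single arrays left out.

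For other transporters, the mimic count was 1 after quantile normalization and 0 with single arrays left out, and the inhibitor count was 3 to 5. Of 87 related genes tested, 3 were called with the mimic, a share near the 3.55% over all genes. The count was 8 after quantile normalization, 9 with both end arrays left out and 0 to 6 with single arrays left out. With the inhibitor 34 of the 87 were called (29 rose and 5 fell, against 26 and 12 after quantile normalization), beside 14.9% of all genes. With single arrays left out this count ran from 20 (without control 2 or inhibitor 3) to 44 (without mimic 3). It was 21 or 22 without inhibitor 1, control 1 or control 3. Over all genes the mimic count of 425 was 774 after quantile normalization, 231 after median centring, 248 in a fit of 6 arrays, 911 with both end arrays left out and 133 to 582 with single arrays left out. The inhibitor count of 1780 ran from 974 to 2790 with single arrays left out. The causes were not tested, and fewer arrays entered the fits of 6 arrays and those with arrays left out.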

Other observations

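With the inhibitor, genes that use branched-chain amino acids and genes of the amino acid sensing arm of mTORC1 had list medians near that of all genes. Of 6 branched-chain genes, Bcat1, which encodes the cytosolic aminotransferase of leucine, isoleucine and valine, rose by 0.43 ± 0.08 (log2, SE) with the inhibitor (limma, adjusted p = 0.00517), and the list median was 0.04, beside rises in 11.1% of all genes. Of 23 sensing genes tested, 5 rose and 3 fell with the inhibitor, beside rises in 11.1% and falls in 3.76% of all genes, and the list median was -0.01, against 0.01 over all genes. Fnip1, a partner of folliculin, rose by 0.48 ± 0.09, and Mios, a subunit of the GATOR2 complex, by 0.32 ± 0.10 (log2, SE; limma, adjusted p = 0.00568 and 0.0483). Lamtor2, a subunit of the lysosomal Ragulator complex, and Sesn1, which encodes sestrin 1, had log2 fold changes of -0.33 ± 0.06 and -0.39 ± 0.11 (SE; limma, adjusted p = 0.00437 and 0.0341). The calls of Mios and Sesn1 ended without the level filter, after median centring, with the replicate number as a block and in most fits with an array left out. With the mimic 1 of 23 sensing genes fell, beside falls in 2.45% of all genes. This was Flcn, which encodes folliculin, at -0.32 ± 0.06 (log2, SE; limma, adjusted p = 0.0192), and its call ended in the fit of 6 arrays (limma, adjusted p = 0.0525) and without mimic 1, control 1 or control 2 (limma, adjusted p of 0.0806 to 0.0976).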
